A study of Homo sapiens with 26 samples.

Results

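The MYC, MAX and MXD network is the set of helix-loop-helix leucine zipper proteins that pair with MAX or with its relative MLX and bind E-box DNA. The genes were chosen by name: MYC, MYCN, MYCL, MAX, MXD1, MXD4, MXI1, MNT, MGA and MLX. All 10 were matched by Ensembl identifier among the 41078 genes of the deposited table. Messenger RNA was measured once in each of 26 single cell-derived cell lines (SCDCLs), 12 labelled BxPC3 and 14 labelled Panc-1, and no SCDCL has a replicate library. BxPC3 and Panc-1 are established human lines of pancreatic ductal adenocarcinoma, and every SCDCL was grown from 1 cell by limiting dilution. The labels name gemcitabine as treatment of all libraries, whereas the methods describe the drug for viability assays. How the single SCDCLs responded to the drug was not analysed here. Levels are given as TPM, the share of each transcript among all transcripts, which are corrected for transcript length and can be compared between genes.

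MYC proteins activate growth genes as partners of MAX at E-boxes, the DNA letters CACGTG. MXD1, MXD4, MXI1 and MNT compete for MAX and recruit the SIN3 corepressor to the same sites, and the balance of both groups is known to shift towards MXD proteins when cells stop dividing and differentiate. MGA pairs with MAX in a Polycomb complex that silences germline genes. MLX pairs with MXD1, MXD4 or MNT, and with the glucose-sensing factors MLXIP and MLXIPL.

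The libraries were split by SMAD4 (chromosome 18, 51028528 to 51085045, GRCh38), a mediator of TGF-beta signaling that BxPC3 lacks through deletion. In 12 libraries SMAD4 was under 1 TPM, at most 0.0440, and in 14 it was at 28.1 to 52.2 TPM. The split did not follow the labels. Of the 12 libraries with SMAD4 under 1 TPM, 5 were labelled BxPC3 and 7 Panc-1, and of the 14 others 7 carried each label. The classes are therefore called SMAD4-low and SMAD4-expressing, and the lines are named only as labels. The class sizes of 12 and 14 equal the numbers of SCDCLs labelled BxPC3 and Panc-1. Whether the classes are the lines themselves was not tested. Differences between the classes cannot be told apart from differences between the lines and are not assigned to SMAD4. The epithelial adhesion gene CDH1 was at a median of 136 TPM in the SMAD4-low and 2.62 TPM in the SMAD4-expressing libraries, and the mesenchymal filament gene VIM at 11 and 3718 TPM. The full marker lists were less uniform. Of 7 expressed mesenchymal markers, 3 did not overlap with SMAD4-expressing higher and 2 with SMAD4-low higher. For 8 epithelial markers the counts were 0 and 4, beside 15.8% and 15.2% of all expressed genes. The summed TPM of the 8 epithelial markers had medians of 3921 in SMAD4-low and 5085 in SMAD4-expressing libraries. For 8 mesenchymal markers they were 127 and 3918. CDKN2A, which both lines lack, was at a median of 0 TPM in each class. Totals ranged from 27035724 to 34945608 estimated counts. Because the classes rest on a measured gene, no test was made between them, and levels, ranges and overlap are given instead.

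The DNA just before the start of the genes was read for the E-box, since the network's own proteins bind these letters. RefSeq promoters of GRCh38.p14 held 9 of the 10 genes in 14 start sites, and the 250 bases before each start were searched. The gene without a promoter in this set was MYC, so the DNA before its start was not searched. CACGTG reads the same on both strands. It was present in 3 of the 9 genes, MNT at 193, MLX at 50 and MXD4 at 238 bases before the start, thus in 3 of the 14 windows, and in 6.34% of the 35116 windows of all RefSeq promoters. The windows of these 3 genes are shown with that of MXD1, the most variable gene of the network, which held no CACGTG. Each was ended before the first base that a GENCODE exon of the gene covers in it, is written 5′ to 3′ on the strand of the gene, and has the E-box in capitals. They lie at chr17:2401105-2401310 on the minus strand for MNT, chr17:42566850-42567071 on the plus strand for MLX, chr4:2262110-2262359 on the minus strand for MXD4 and chr2:69914859-69915040 on the plus strand for MXD1.
MNT: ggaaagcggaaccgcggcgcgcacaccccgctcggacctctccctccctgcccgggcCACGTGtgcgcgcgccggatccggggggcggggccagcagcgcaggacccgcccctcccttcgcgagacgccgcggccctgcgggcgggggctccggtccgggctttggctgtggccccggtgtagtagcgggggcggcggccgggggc
MLX: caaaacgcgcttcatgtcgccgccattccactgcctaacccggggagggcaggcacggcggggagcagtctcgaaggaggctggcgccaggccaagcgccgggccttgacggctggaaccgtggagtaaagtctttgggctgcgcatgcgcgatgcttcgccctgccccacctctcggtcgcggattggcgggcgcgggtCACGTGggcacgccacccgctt
MXD4: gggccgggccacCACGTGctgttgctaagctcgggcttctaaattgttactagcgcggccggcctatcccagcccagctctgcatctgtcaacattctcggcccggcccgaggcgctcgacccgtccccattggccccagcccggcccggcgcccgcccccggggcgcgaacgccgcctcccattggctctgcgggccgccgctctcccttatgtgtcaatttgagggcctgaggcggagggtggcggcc
MXD1: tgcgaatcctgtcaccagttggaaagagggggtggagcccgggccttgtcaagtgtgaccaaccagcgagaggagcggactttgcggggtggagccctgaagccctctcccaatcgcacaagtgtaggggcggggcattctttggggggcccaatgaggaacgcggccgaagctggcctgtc
The MXD1 window lies inside the GENCODE gene, which begins farther upstream, at 69897688. A match of letters is a description and not a measured binding site.

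MYC was the only member of the activating family at an appreciable level. MYC (ENSG00000136997, chromosome 8) was at 92.9 TPM in the lowest, 164 TPM in the median and 244 TPM in the highest of the 12 SMAD4-low libraries. In the 14 SMAD4-expressing libraries the lowest was at 42.9, the median at 54.4 and the highest at 76.0 TPM. The classes did not overlap, and the SMAD4-low median was 3.0 times the other. The highest library, 4, labelled Panc-1, stood well above the second at 174 TPM. Among all 15246 genes with a median of at least 1 TPM in a class, 15.2% did not overlap with SMAD4-low higher, 15.8% did not overlap with SMAD4-expressing higher, and 31.0% did not overlap in either direction, so that separation of the classes was common. MYCL (ENSG00000116990, chromosome 1, 39895428 to 39902256), a paralog first known from lung cancer, ranged from 0.266 to 1.98 TPM and from 0.0392 to 2.02 TPM in the SMAD4-low and the SMAD4-expressing class. MYCN (ENSG00000134323, chromosome 2, 15940550 to 15947007), known for its amplification in neuroblastoma, was listed at 0 in every SMAD4-low library and reached 0.0358 TPM in the others. MYC made up 98.8% to 99.8% of the summed TPM of the 3 paralogs in the SMAD4-low libraries and 96.2% to 99.9% in the SMAD4-expressing libraries. MYCN and MYCL did not reach a median of 1 TPM in either class, which left 8 of the 10 genes for the counts below.

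MAX, the shared partner, also separated the classes. MAX (ENSG00000125952, chromosome 14, 65006174 to 65102695) was at 52.8, 72.0 and 90.2 TPM in the lowest, median and highest SMAD4-low library and at 24.3, 35.7 and 47.4 TPM in the SMAD4-expressing libraries. The ratio of medians was 2.02. MLX (ENSG00000108788, chromosome 17, 42567072 to 42573239) was at 49.2, 58.3 and 74.2 TPM and at 30.0, 38.0 and 43.7 TPM, a ratio of 1.53. MLX varied least of the 8 genes. Its SD of log2(TPM + 1) was 0.15 in both classes, smaller than that of all but 7.01% and 7.96% of the genes with a mean of at least 5 TPM.

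**Figure D1:**
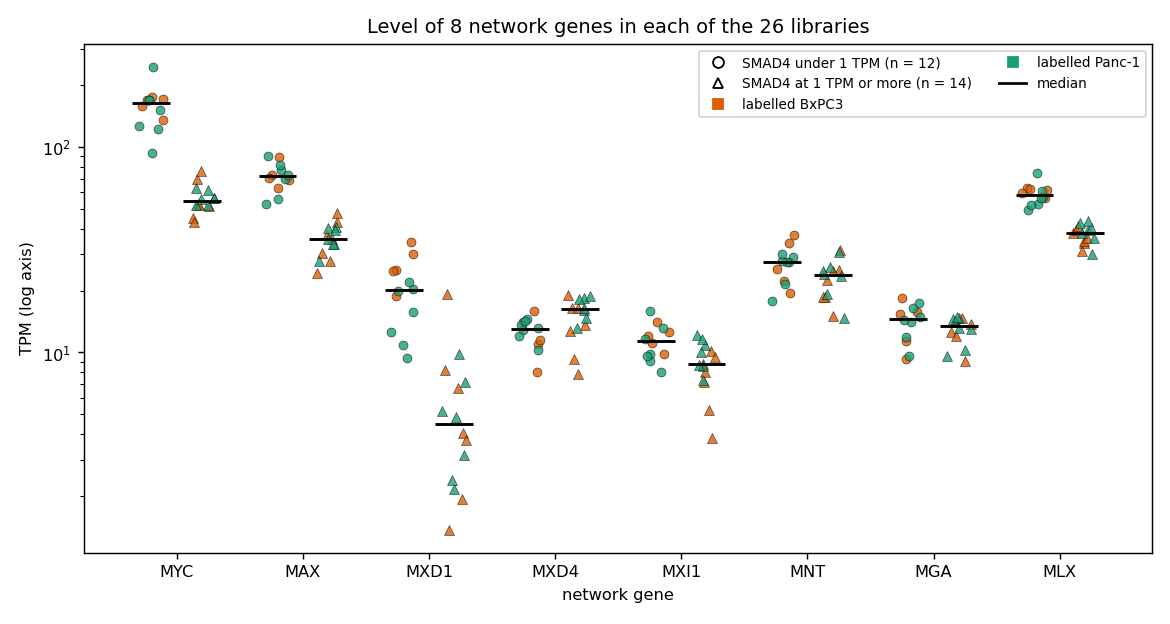
Level of the 8 expressed network genes in each library, in TPM on a log axis; circles are the 12 SMAD4-low and triangles the 14 SMAD4-expressing libraries, colours give the label, and bars mark medians. MYC, MAX and MLX separate the classes, while MXD1 is spread widely in both and overlaps through 2 SMAD4-expressing libraries at 19.2 and 9.84 TPM.

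Among the antagonists, MXD1 differed most. MXD1 (ENSG00000059728, chromosome 2, 69897688 to 69942945), a repressor induced in differentiating cells, was at 9.43, 20.2 and 34.6 TPM in the lowest, median and highest SMAD4-low library and at 1.38, 4.47 and 19.2 TPM in the SMAD4-expressing libraries. The medians differed 4.51-fold, but the ranges overlapped. Library 18, labelled BxPC3, was at 19.2 TPM and thus within the SMAD4-low range, and the second highest SMAD4-expressing library, at 9.84 TPM, was above only the lowest SMAD4-low library.

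The other antagonists lay close together in the classes, and all overlapped. MNT (ENSG00000070444, chromosome 17, 2384073 to 2401104), a repressor present in dividing and resting cells alike, was at 17.7, 27.4 and 37.4 TPM in SMAD4-low and at 14.7, 23.7 and 31.7 TPM in SMAD4-expressing libraries. MXI1 (ENSG00000119950, chromosome 10, 110207605 to 110287365) was at 8.01, 11.4 and 15.9 TPM and at 3.83, 8.77 and 12.2 TPM. MXD4 (ENSG00000123933, chromosome 4, 2247432 to 2262109) was at 8.05, 13 and 16 TPM and at 7.83, 16.3 and 18.9 TPM. MXD4 was thus the only one of the 8 genes with a lower median in the SMAD4-low class, at 0.799 times the other. MGA (ENSG00000174197, chromosome 15, 41621134 to 41773081) was at 9.30, 14.6 and 18.5 TPM and at 9.10, 13.4 and 14.8 TPM. In all, 3 of the 8 genes did not overlap with SMAD4-low higher and none with SMAD4-expressing higher, beside 15.2% and 15.8% of all genes.

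Of the 3 further genes of the network that were not in the list, none separated the classes. MXD3, an MXD protein linked to proliferating cells, had medians of 11 TPM in SMAD4-low and 8.44 TPM in SMAD4-expressing libraries. The MLX partner MLXIP was at 8.61 and 13.5 TPM, and MLXIPL at 0.431 and 2.59 TPM.

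Summed as transcripts, the MYC family exceeded the antagonists in all 12 SMAD4-low libraries and was near them in the others. The ratio of MYC, MYCN and MYCL to MXD1, MXD3, MXD4, MXI1 and MNT was 1.02 in the lowest, 2.12 in the median and 2.70 in the highest SMAD4-low library. In the SMAD4-expressing libraries it was 0.682, 0.900 and 1.06. The ratios of the classes overlapped only through library 7, labelled Panc-1, which had the lowest MYC of its class. MXD1 contributed 14% to 38% of the antagonist sum in the SMAD4-low libraries and 2.73% to 28.2% in the others. TPM of transcripts do not measure the amounts of protein.

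**Figure D2:**
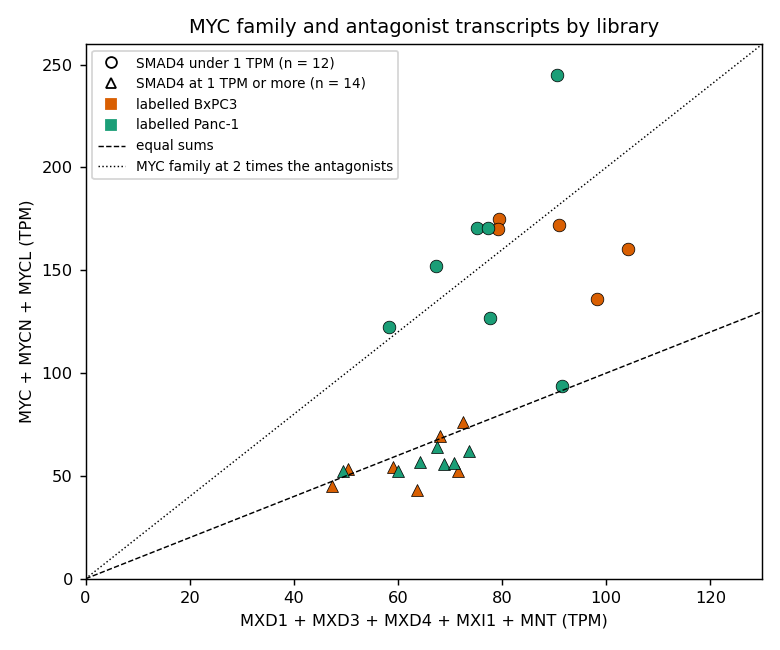
Summed TPM of MYC, MYCN and MYCL against summed TPM of MXD1, MXD3, MXD4, MXI1 and MNT, 1 point per library; shape gives the SMAD4 class and colour the label, the dashed line marks equal sums and the dotted line a MYC family sum 2 times the antagonists. SMAD4-expressing libraries lie around the line of equal sums (ratio 0.682 to 1.06) and SMAD4-low libraries on or above it (1.02 to 2.70).

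MXD1 also varied most from library to library within each class. Its SD of log2(TPM + 1) was 0.55 in SMAD4-low and 0.84 in SMAD4-expressing libraries and was larger than that of 90.7% and 96.9% of genes. MXD1 had at least 130 estimated counts in every library. The SD of MYC, at 0.34 and 0.22, was larger than that of 67.8% and 32.2% of genes. The mean effective length of the MYC transcripts, by which TPM are corrected, was 1804 to 2136 bases in the SMAD4-low and 2073 to 2266 bases in the SMAD4-expressing libraries, and its part in the MYC levels was not tested. With another scaling between libraries, as CPM (counts over the library total, scaled by TMM), the ratio of MYC medians was 2.85.

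The lines named by the labels were compared next, as this is the grouping the labels give. SMAD4 went against the label in 14 of 26 libraries, 7 labelled Panc-1 with SMAD4 under 1 TPM and 7 labelled BxPC3 with SMAD4 expressed, so that the values below, and those with the label as a covariate, compare libraries as labelled and may not compare the lines. With edgeR's quasi-likelihood test no gene of 16008 differed between the libraries labelled Panc-1 and BxPC3 at an adjusted p under 0.05 (0.0%), while 367 did before adjustment. The 1 gene called by DESeq2 was no member of the network. The log2 difference of Panc-1 over BxPC3 labels was 0.09 for MYC (SE 0.32), 0.10 for MAX (SE 0.23) and -0.53 for MXD1 (SE 0.48), each with an edgeR adjusted p of 1.00. With the SMAD4 class as a covariate the difference of MXD1 was -0.57 (SE 0.31, edgeR adjusted p = 0.695). No gene showed a label effect that differed between the classes in edgeR (0 of 17456 genes, 0.0%, with 1357 under 0.05 before adjustment). The 14 genes that DESeq2 called held no network gene.

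Within the SMAD4-low class, MXD1 had a higher median under the BxPC3 label, in a comparison chosen after the values were seen. The 5 libraries labelled BxPC3 were at 18.9, 25, 25.2, 30.0 and 34.6 TPM, and the 7 labelled Panc-1 ranged from 9.43 to 22.1 TPM with a median of 15.7 TPM. The ranges overlapped, and the log2 difference of Panc-1 over BxPC3 of -0.74 (SE 0.24) had an unadjusted p of 0.00703 and an adjusted p of 0.405 in edgeR's quasi-likelihood test over 16124 genes, of which 0.0% were called. Before adjustment 1840 of the 16124 genes had a p under 0.05 in this test. In the SMAD4-expressing class the MXD1 difference was -0.40 (SE 0.51, edgeR adjusted p = 0.985).

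Whether members of the network rose and fell together was examined within each class, over 12 and 14 libraries. All 28 pairs of the 8 expressed genes were correlated in both classes, 56 in all, with p-values from 100000 permutations. No pair passed an adjusted p under 0.05, and the smallest adjusted p was 0.236. Before adjustment 3 pairs in the SMAD4-low and 4 in the SMAD4-expressing class had a permutation p under 0.05. The sign of r was the same in both classes in 18 of the 28 pairs.

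MYC and MAX gave the largest r of MYC on the log2(TPM + 1) scale in the SMAD4-low libraries, with Pearson's r = 0.67 (permutation p = 0.0168, adjusted p = 0.236) and Spearman's rho = 0.69 (permutation p = 0.0163, adjusted p = 0.304). Without the 2 libraries farthest in MYC, r was 0.57 (permutation p = 0.0893). Of all genes in the same libraries, 2.55% had an r with MYC at least as far from 0. In the SMAD4-expressing libraries r of MYC and MAX was 0.19 (permutation p = 0.520, adjusted p = 0.787), and it was -0.03 without the 2 farthest libraries.

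MNT and MGA had a positive r of similar size in both classes on the log2(TPM + 1) scale. In SMAD4-low libraries r was 0.69 (rho = 0.83, permutation p = 0.0134, adjusted p = 0.236) and in SMAD4-expressing libraries 0.65 (rho = 0.47, permutation p = 0.0131, adjusted p = 0.236). Without the 2 libraries farthest in MNT the values were 0.57 and 0.17, so the second rests on those 2 libraries. On the TMM-scaled log2(CPM + 1) scale r of MNT and MGA was 0.39 in the SMAD4-low (permutation p = 0.214) and 0.51 in the SMAD4-expressing libraries (permutation p = 0.0592). On the log2(TPM + 1) scale 10.1% of all genes had an r with MNT at least as far from 0 in the SMAD4-low libraries. With MGA the share was 13.1%. In the SMAD4-expressing libraries the shares were 3.23% with MNT and 3.24% with MGA. MNT and MLX had r = 0.71 in the SMAD4-expressing libraries (rho = 0.60, permutation p = 0.00486, adjusted p = 0.236), which fell to 0.35 without the 2 farthest libraries and was 0.50 on the log2(CPM + 1) scale. MXD4 and MNT had r = 0.59 in the SMAD4-low libraries (rho = 0.55, permutation p = 0.0404, adjusted p = 0.377), which fell to 0.36 without the 2 farthest and was 0.25 on the log2(CPM + 1) scale. For this pair 6.1% of all genes were as far from 0 with MXD4 and 19.1% with MNT. For MNT and MLX in the SMAD4-expressing libraries the shares were 1.45% with MNT and 1.74% with MLX.

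No inverse relation of MYC with an antagonist passed the test. In the SMAD4-low libraries r of MYC was 0.23 with MXD1, -0.33 with MXD4, 0.50 with MXI1 and -0.04 with MNT. In the SMAD4-expressing libraries the values were 0.45, 0.56, 0.54 and 0.19. The 2 pairs at a permutation p under 0.05 were MYC with MXD4 (p = 0.0381, adjusted p = 0.377) and with MXI1 (p = 0.0486, adjusted p = 0.389), both positive. Of all genes in these libraries, 4.72% and 5.99% had an r with MYC at least as far from 0. Among the 7 SMAD4-expressing libraries labelled Panc-1, r of MYC with MXD4 and MXI1 was 0.10 and -0.20. Among the 7 labelled BxPC3 it was 0.64 and 0.70. MYC with MGA had r = -0.48 and -0.21, and with MLX 0.34 and -0.11, in the SMAD4-low and SMAD4-expressing class. On the log2(CPM + 1) scale r of MYC with MGA in the SMAD4-low libraries was -0.74 (permutation p = 0.00505, adjusted p = 0.181), as far from 0 as that of MYC with MAX, 0.73 (permutation p = 0.00645, adjusted p = 0.181), whereas it was 0.00698 on the log2(TPM + 1) scale without the 2 libraries farthest in MYC.

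**Figure D3:**
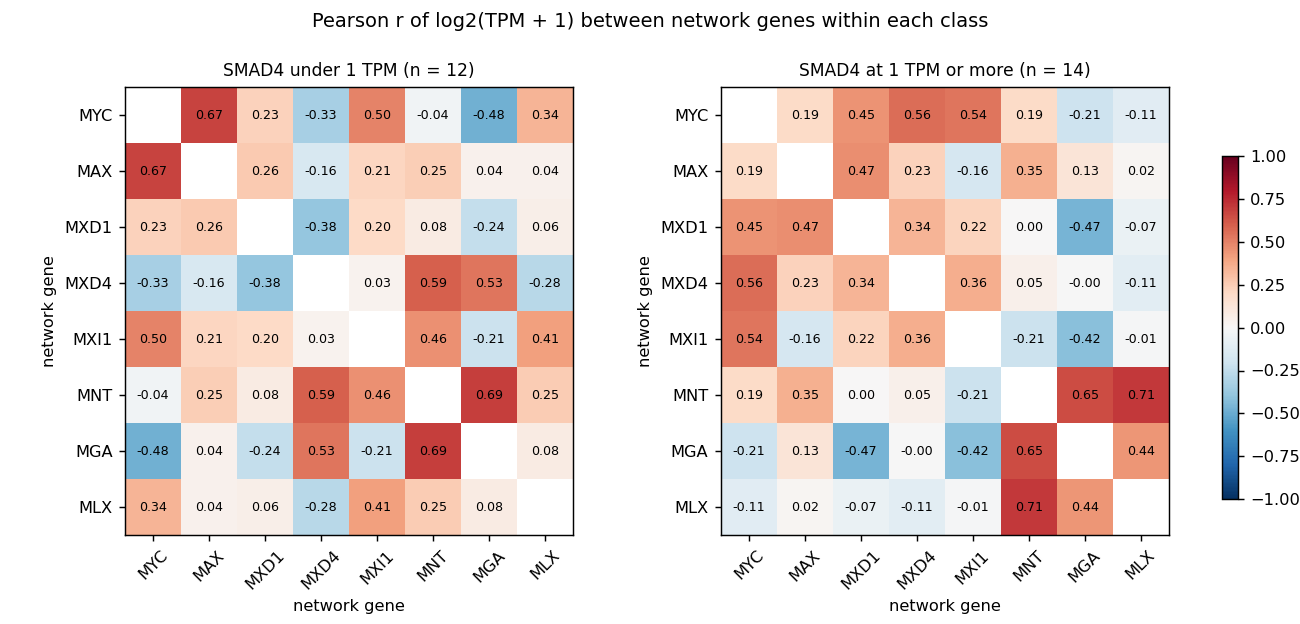
Pearson r of log2(TPM + 1) for each pair of the 8 network genes within the 12 SMAD4-low (left) and the 14 SMAD4-expressing libraries (right); red is positive and blue negative. MYC and MAX reach 0.67 on the left and 0.19 on the right, and MNT and MGA 0.69 and 0.65.

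The genes known to be activated or repressed by MYC had no slope on MYC that passed the test within a class. A slope on log2(CPM + 1) of MYC was fitted with edgeR to every other gene within each class. In the SMAD4-low libraries 1 gene of 13967 (0.00716%) passed an adjusted p under 0.05, LCTL, which encodes a klotho-related glycosidase-like protein, with a slope of -2.39 log2 units per log2 unit of MYC (SE 0.28, edgeR adjusted p = 0.00721). LCTL passed in 11 of 12 fits that left out a library, and without library 7, labelled Panc-1, its adjusted p was 0.111 in edgeR. In the SMAD4-expressing libraries 0 of 13770 (0.0%) passed in edgeR, with 943 under 0.05 before adjustment. DESeq2 called 95 genes in the SMAD4-low and 1 in the SMAD4-expressing class.

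None of the 26 ribosome biogenesis genes, 23 metabolic genes and 16 or 17 cell cycle genes known as MYC targets passed in either class in edgeR. Of the 26 ribosome biogenesis genes 0 had an unadjusted p under 0.05 in the SMAD4-low and 2 in the SMAD4-expressing libraries. The slopes nearest to a call among the cell cycle genes were those of CCNE1, the G1 cyclin E, at 0.55 in the SMAD4-low libraries (SE 0.18, edgeR adjusted p = 0.293) and of the phosphatase gene CDC25A at -1.07 in the SMAD4-expressing libraries (SE 0.36, edgeR adjusted p = 0.670). LDHA, which makes lactate, had a slope of 0.72 in the SMAD4-low libraries (SE 0.28, edgeR adjusted p = 0.330). Of the 15 proliferation genes 0 passed in either class, and 3 and 0 had a positive slope in the SMAD4-low and SMAD4-expressing libraries. Over all genes 6966 of 13967 and 6807 of 13770 had a positive slope on MYC in these classes. Genes known to be repressed by MYC did not pass either, and 9 of 11 had a positive slope on MYC in the SMAD4-low libraries, with a median of 0.57. Before adjustment 4 of them had a p under 0.05 with a positive and 1 with a negative slope, beside 1656 of all 13967 genes in either direction. Those with the smallest p were the TGF-beta receptor gene TGFBR2 at 0.65 (SE 0.24, edgeR adjusted p = 0.320) and CDKN1A, the cell cycle inhibitor p21, at 1.05 (SE 0.44, edgeR adjusted p = 0.369). MAX had a slope of 0.50 on MYC (SE 0.16, edgeR adjusted p = 0.298) and MGA of -0.46 (SE 0.16, edgeR adjusted p = 0.308) in the SMAD4-low libraries.

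The genes with a pattern most like that of MYC were taken by Pearson's r among 11090 and 10849 genes with a mean of at least 5 TPM, as a description. In the SMAD4-low libraries these were NDUFA7 at 0.85, PIERCE1 at 0.85 and SH2D2A at 0.84, and the most unlike were MAGEF1 at -0.85, WBP1L at -0.85 and SNX7 at -0.84. In the SMAD4-expressing libraries they were the mitochondrial genes MRPL4 at 0.82 and TIMM17B at 0.81 and SMIM20 at 0.80, and IKBIP at -0.86, ENSG00000273592 at -0.83 and ZNF215 at -0.78. No slope of these 12 genes on MYC passed the adjusted threshold in edgeR.

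Because MXD1 varied most among the members, a slope on MXD1 was fitted as well, a choice made after its values had been seen. In the SMAD4-low libraries 799 of 13967 genes (5.72%) passed an adjusted p under 0.05 in edgeR, 598 with a positive and 201 with a negative slope (4.28% and 1.44%). Without library 3, labelled Panc-1, 228 passed, without library 26, labelled BxPC3, 380, without library 21, labelled BxPC3, 462 and without library 5, labelled Panc-1, 491. With the label as a covariate 247 passed. None of the other network genes was among the 799. DESeq2 called 1 network gene, MYCL (DESeq2 adjusted p = 0.0386), for which edgeR gave a slope of 0.82 (SE 0.25, edgeR adjusted p = 0.0719).

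Genes known to be repressed by MYC were among those that rose with MXD1 in the SMAD4-low libraries. Of 11 tested, 4 passed with a positive slope and 0 with a negative one, beside 4.28% of all genes with a positive slope. In all, 6 of the 11 had a positive slope, beside 6679 of all 13967 genes, and the rest had a negative one. Before adjustment 6 had an edgeR p under 0.05 with a positive and 1 with a negative slope, beside 1690 and 1387 of all 13967 genes. The median slope of the 11 genes was 0.37 on MXD1 and, as given above, 0.57 on MYC, so that positive slopes were not particular to MXD1. CDKN1A had a slope of 1.27 log2 units per log2 unit of MXD1 (SE 0.20, edgeR adjusted p = 0.00402). CDKN1A was at 30.6, 22.4 and 40.7 TPM in libraries 6, 3 and 5, the lowest in MXD1, and at 119 and 111 TPM in libraries 26 and 21, the highest in MXD1. It also reached 120 TPM in library 4, where MXD1 was at 19.9 TPM. NDRG1, a stress-induced gene of growth-arrested cells, had a slope of 1.38 (SE 0.30, edgeR adjusted p = 0.0163), and ran from 19.6 TPM in library 3 to 182 TPM in library 26. It was at 54.0 TPM in library 16, where MXD1 was at 25.2 TPM. The integrin chains ITGA1 and ITGB1 had slopes of 0.94 (SE 0.21, edgeR adjusted p = 0.0193) and 0.53 (SE 0.11, edgeR adjusted p = 0.0153). CDKN1A passed with each library left out in turn, with a highest adjusted p of 0.0213. NDRG1 and ITGA1 passed in 10 of 12 such fits and ITGB1 in 11 of 12. With the label as a covariate CDKN1A (edgeR adjusted p = 0.0167) and NDRG1 (edgeR adjusted p = 0.0453) passed, whereas ITGA1 was at 0.125 and ITGB1 at 0.0768.

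Single genes of 5 lists passed with a negative slope on MXD1, beside 1.44% of all genes. The epithelial markers, given below, are not counted among these lists. Positive slopes were held by 1 of 26 ribosome biogenesis genes, 4 of 16 cell cycle targets and 5 of 15 proliferation genes. For the 12 MYC turnover genes and 11 MGA complex genes the counts were 4 and 5, beside 6679 of all 13967 genes. Before adjustment 5 ribosome biogenesis genes and 6 cell cycle targets fell at an edgeR p under 0.05, beside 1387 of all genes. FBL, the nucleolar methyltransferase fibrillarin, had a slope of -0.42 (SE 0.11, edgeR adjusted p = 0.0324) and was 1 of 26 ribosome biogenesis genes to pass. FBL was at 210, 227 and 220 TPM in libraries 6, 3 and 5 and at 131 and 108 TPM in libraries 26 and 21. In library 16, where MXD1 was at 25.2 TPM, it was at 188 TPM. TYMS, thymidylate synthase, was 1 of 15 proliferation genes (slope -0.57, SE 0.13, edgeR adjusted p = 0.0174), and BRCA1, a DNA repair gene, 1 of 16 cell cycle targets of MYC (slope -0.45, SE 0.12, edgeR adjusted p = 0.0437). SKP2, a ubiquitin ligase subunit that acts on MYC and on the p27 inhibitor, was 1 of 12 MYC turnover genes (slope -0.35, SE 0.10, edgeR adjusted p = 0.0422). TFDP1, the partner of E2F factors, was 1 of 11 genes of the MGA complex (slope -0.38, SE 0.10, edgeR adjusted p = 0.0348). With the label as a covariate none of these 5 passed, at adjusted p of 0.122 to 0.295, and FBL, BRCA1, SKP2 and TFDP1 passed in 7, 4, 3 and 6 of the 12 fits that left out a library and TYMS in 8.

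Other measures also varied among the SMAD4-low libraries. Libraries 6, 3 and 5, with the lowest MXD1, had the fewest genes with at least 5 estimated counts, 16376, 16780 and 16729, while the others had 16928 to 17641. Among those others the number did not rise with MXD1. Libraries 26 and 16, at 30.0 and 25.2 TPM of MXD1, had 16928 and 16936, and library 24, at 18.9 TPM, had 17641. Of the marker genes of other cell types, FN1 passed among 6 mesenchymal (slope 1.10, SE 0.25, edgeR adjusted p = 0.0201), PDGFRA among 3 fibroblast (slope 1.53, SE 0.22, edgeR adjusted p = 0.00227) and CD68 as the 1 leukocyte gene tested (slope 1.08, SE 0.28, edgeR adjusted p = 0.0385), while the keratin gene KRT8 fell as 1 of 8 epithelial markers, of which 4 had a positive slope (KRT8 slope -0.55, SE 0.14, edgeR adjusted p = 0.0293). The summed level of the 8 fibroblast markers was at most 46.5 TPM and that of the 8 leukocyte markers at most 51.0 TPM in these libraries, against 2649 to 5313 TPM for the 8 epithelial markers. The part of these measures in the slopes on MXD1 was not tested.

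**Figure D4:**
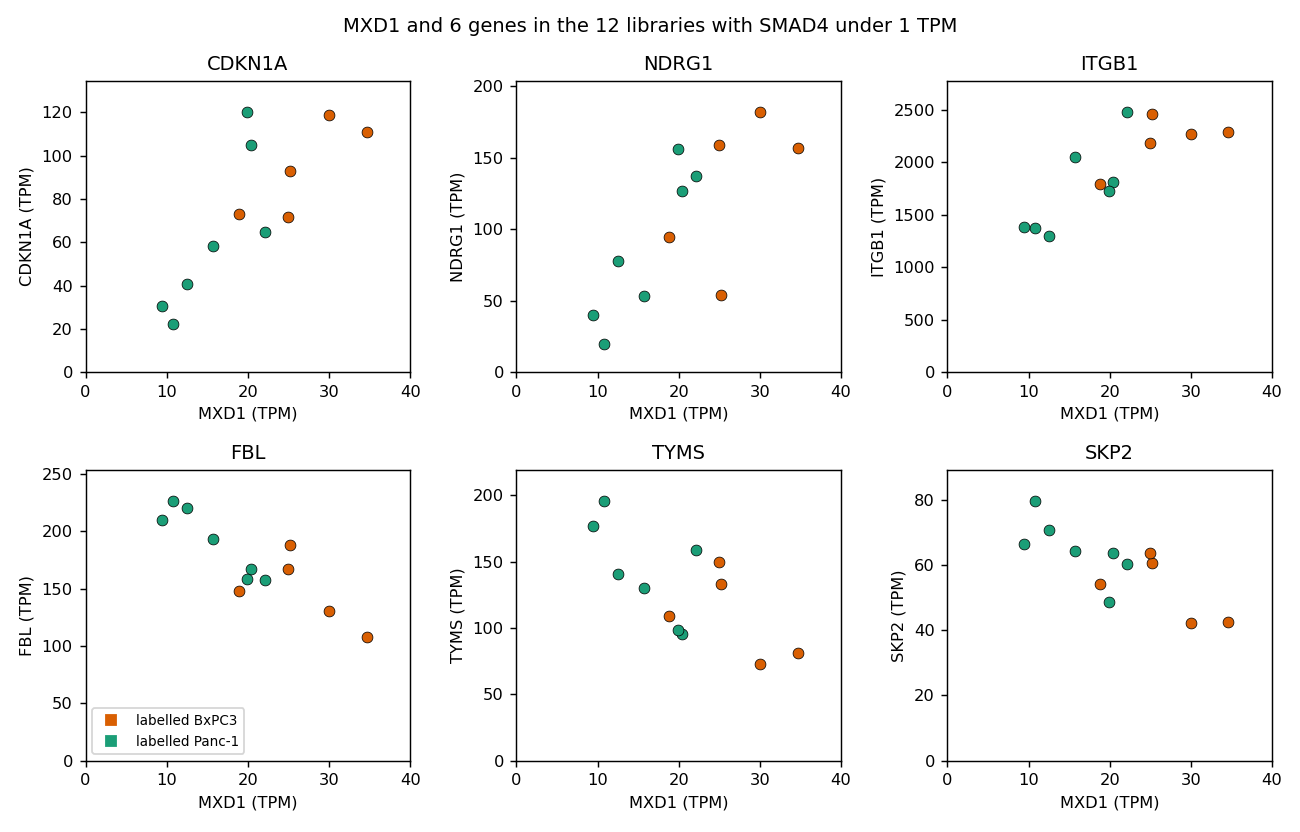
MXD1 against 6 genes with a called slope on MXD1 in the 12 SMAD4-low libraries, both axes in TPM, 1 point per library coloured by label. CDKN1A, NDRG1 and ITGB1 lie higher and FBL, TYMS and SKP2 lower in libraries with more MXD1, and the libraries lowest in MXD1 all carry the Panc-1 label.

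The genes most like MXD1 in the SMAD4-low libraries by Pearson's r were the Golgi mannosidase MAN2A1 at 0.95, the metalloprotease ADAM8 at 0.95 and the P-cadherin gene CDH3 at 0.94. CDH3 ran from 110 to 443 TPM and had a slope of 1.03 on MXD1 (SE 0.12, edgeR adjusted p = 0.000437). The most unlike were the RNA-binding gene LSM4 at -0.94 and the ribosomal protein genes RPS24 at -0.92 and RPS2 at -0.91, for which the slopes did not pass, at adjusted p of 0.106, 0.144 and 0.0529 in edgeR.

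In the SMAD4-expressing libraries the genes going with MXD1 depended on 1 library. Of 13770 genes, 110 (0.799%) passed in edgeR, 72 with a positive and 38 with a negative slope (0.523% and 0.276%). Without library 18, labelled BxPC3 and at 19.2 TPM of MXD1, 0 passed. Without library 17, labelled BxPC3, the lowest in MXD1 at 1.38 TPM, 19 passed, and without libraries 8, 20, 10 and 22 in turn 50, 56, 69 and 166 did. Among the 110 were PRDM8 and TIMP1, an inhibitor of metalloproteases, which were among the genes most like MXD1 at r = 0.91 and 0.90. No gene of the MYC target or MYC-repressed lists passed. NDRG1 had a slope of 0.74 (SE 0.19, edgeR adjusted p = 0.0727) and CDKN1A none that passed.

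Between the SMAD4 classes, the genes around the network differed in both directions. Of the 26 ribosome biogenesis genes 0 separated with SMAD4-low higher and 3 with SMAD4-expressing higher, and the median difference of the list in log2(TPM + 1), SMAD4-low minus SMAD4-expressing, was -0.39, beside -0.01 over all genes. The counts of this list and of those that follow stand beside 15.2% of all genes that separated with SMAD4-low higher and 15.8% with SMAD4-expressing higher. FBL (chromosome 19, 39834458 to 39846379) was at 108 to 227 TPM in the SMAD4-low and at 1295 to 2160 TPM in the SMAD4-expressing libraries. Of the 23 metabolic targets 2 separated with SMAD4-low higher and 4 with SMAD4-expressing higher (median -0.09). ODC1, the first enzyme of polyamine synthesis, had medians of 83.5 and 205 TPM, and the glutamine transporter gene SLC1A5 of 429 and 117 TPM. Of the 17 cell cycle targets 1 separated in each direction (median 0.19). Of the 15 proliferation genes 1 and 2 separated with SMAD4-low higher and SMAD4-expressing higher (median 0.22). MKI67, the proliferation antigen Ki-67, had medians of 42.6 and 51.9 TPM, and its ranges overlapped.

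The genes known as targets of MLX with its glucose-sensing partners were mostly higher in the SMAD4-low libraries. Of 6 genes, 4 separated with SMAD4-low higher and 0 with SMAD4-expressing higher (median 1.44), against 15.2% and 15.8% of all genes. TXNIP, an inhibitor of glucose uptake, was at 33.8 to 154 TPM in the SMAD4-low and at 0.517 to 7.40 TPM in the SMAD4-expressing libraries. Its medians differed 77.9-fold. Its relative ARRDC4 had medians of 5.10 and 0.998 TPM, PFKFB3, a regulator of glycolysis, of 30.4 and 12 TPM, and the hexokinase gene HK2 of 27.4 and 3.23 TPM. The ranges of KLF10 and PDK4 overlapped.

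Of 11 expressed genes known to be repressed by MYC, 3 separated with SMAD4-low higher and 1 with SMAD4-expressing higher (median 1.04), beside 15.2% and 15.8% of all genes. NDRG1 was at 19.6 to 182 TPM in the SMAD4-low and at 1.18 to 11.2 TPM in the SMAD4-expressing libraries. CDKN1A had medians of 72.4 and 32.1 TPM with overlapping ranges, and KLF6, a zinc finger factor, was at medians of 17.5 and 92.9 TPM.

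Among the proteins that act with the network, 1 of 12 MYC cofactors separated in each direction (median -0.25), and here too 15.2% and 15.8% of all genes did. The WDR5 gene, whose product anchors MYC to chromatin, had medians of 61.5 and 26.8 TPM, and PAF1, a subunit of an elongation complex, of 85.5 and 1085 TPM. PAF1 lies at 39385629 to 39391154 on chromosome 19, near FBL. The part of this shared position in the levels of PAF1 and FBL was not tested. Of the 12 MYC turnover genes 3 separated with SMAD4-low higher and 1 with SMAD4-expressing higher (median 0.06). SKP2 was at 42.1 to 79.6 TPM and at 7.72 to 16.7 TPM, and the kinase gene GSK3B, whose product marks MYC for degradation, had medians of 34.6 and 9.68 TPM. Of the 12 SIN3 corepressor genes 1 and 2 separated (median -0.25), and the deacetylase gene HDAC2 was at medians of 229 and 403 TPM. Of the 13 genes of the MGA complex 1 and 4 separated (median 0.06). PCGF6, the Polycomb subunit that defines this complex, had medians of 0.0533 and 17.1 TPM, and E2F6, its DNA-binding partner, of 11.7 and 37.3 TPM, whereas MGA itself overlapped. Of 10 germline genes known to be silenced by the complex, 3 reached a median of 1 TPM in a class and 1 separated, SMC1B, a meiotic cohesin gene, at medians of 3.56 and 0.136 TPM. Of 12 genes known to feed into MYC transcription, 1 and 3 separated (median -0.18), among them NOTCH1 at 23.3 and 4.74 TPM and STAT3 at 89.1 and 204 TPM.

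**Figure D5:**
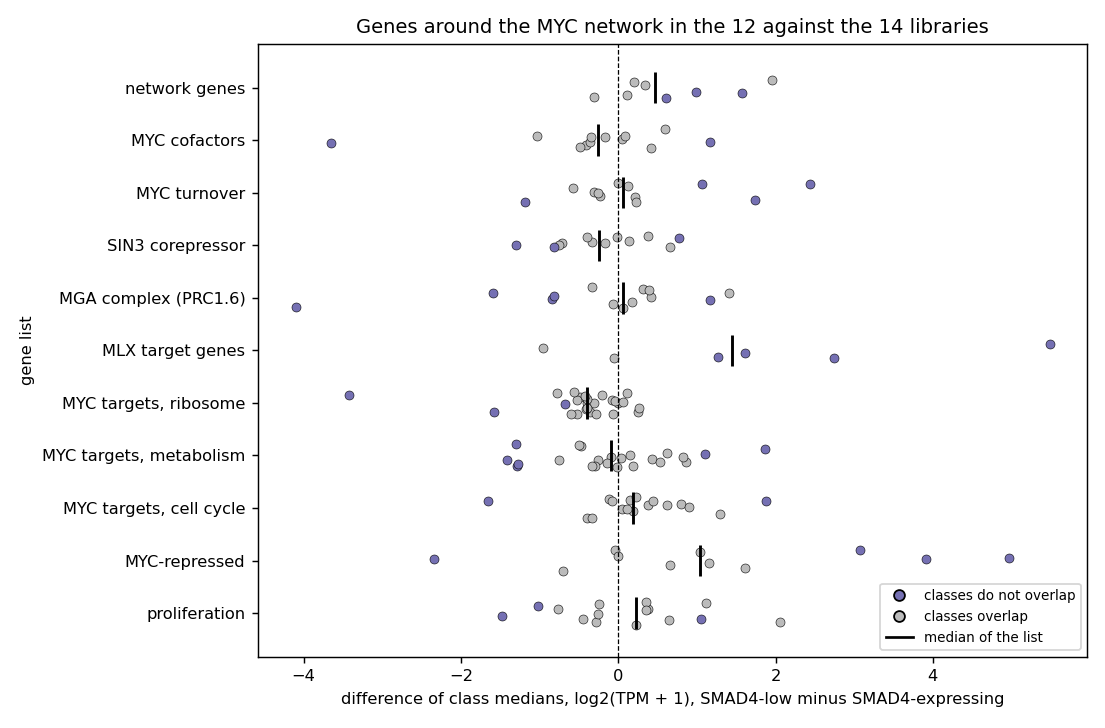
Difference of the class medians in log2(TPM + 1), SMAD4-low minus SMAD4-expressing, for each expressed gene of 11 lists; coloured points are genes whose classes do not overlap, and bars mark the median of a list. The MLX target list is centred at 1.44 and the ribosome biogenesis list at -0.39, beside -0.01 over all genes.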

How the data were processed

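mRNA was sequenced in 26 SCDCL libraries (12 under the BxPC3 and 14 under the Panc-1 label). The authors assigned reads with kallisto 0.46.1 to the Ensembl transcripts of GRCh38 and summed genes with tximport. They deposited TPM and length-scaled estimated counts for each gene beside 30 resampled estimates per library. The 780 columns of resampled values were not used. Estimated counts, remade from TPM and thus corrected for length as well, were rounded. Of 41078 genes, 36315 matched a symbol in GENCODE 44. Totals of 27035724 to 34945608 estimated counts limit precision for genes with few counts.

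Slopes and label effects were tested with edgeR 4.0.16 (quasi-likelihood, TMM, filterByExpr, Benjamini-Hochberg, adjusted p under 0.05) in R 4.3.3. DESeq2 1.42.0, limma 3.58.1, other size factors, no filter, covariates, a pseudocount of 0.1 and leaving out each library were alternatives. Correlations used log2(TPM + 1) and 100000 permutations, two-sided, in Python 3.11.15 (scipy 1.17.1, numpy 2.4.6, pandas 2.3.3, matplotlib 3.10.9). P-values measure the spread between single libraries of separate SCDCLs. The label comparison over all libraries and the slopes on MYC were tested on simulated data with changes of known size. The slopes on MXD1, the label effect by class and the label comparison within classes were not. The simulated slopes on MYC were steeper than those printed here, so the simulation does not bear on slopes of the printed size. For the label comparison the simulated libraries held no SMAD4 classes.

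Members and gene lists were chosen with earlier results of these data known. The SMAD4 classes, at 1 TPM, come from measured values, so the classes were not tested against each other. Genes named were all members, MYC with each other member, the 3 pairs with the largest r per class, the 3 genes most like and unlike MYC, and, per list, up to 4 called genes by slope, or, with none called, up to 2 by p. Slopes on MXD1, the label comparison within classes and the genes named for class levels were chosen after the values were seen. PVT1, CCAT1, CASC8 and CASC11 were not analysed here.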

Additional observations from a re-analysis of the deposited data

Results flagged for a closer look

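MXD1 in library 18, labelled BxPC3 and SMAD4-expressing, was at 19.2 TPM, and the next of the 7 libraries with this label and class was at 8.18 TPM. The gap was 0.619 of the whole range of the group, above Dixon's critical value of 0.568 for 7 libraries. It was taken in TPM and not on the log2 scale used for the spreads and correlations, where it was not examined. Of 32 groups of 5 or 7 libraries examined for 8 genes, MXD1 in this group was the 1 that stood apart. Chance gives about 1 in 20, so 1 flag among 32 groups is not more than chance can give.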

How the results depend on the processing

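Ratios of the class medians of the 8 expressed network genes moved by less than the SD between libraries with TMM-scaled CPM and median-of-ratios size factors, and kept their direction. An SMAD4 threshold of 10 TPM gave the same classes and so tested nothing. DESeq2 called 1 gene between labels, 14 for the label effect by class, 95 for MYC in SMAD4-low and 1 in SMAD4-expressing libraries, and 1551 and 587 for MXD1. limma called 0 for MYC in SMAD4-low libraries. Without a filter on low counts 10 genes passed for MYC in each class. The label as a covariate gave 247 for MXD1 in SMAD4-low libraries. With each library left out, counts ran from 1 to 3 and 0 to 1 for MYC, from 228 to 1018 and 0 to 166 for MXD1, in SMAD4-low and SMAD4-expressing libraries, and stayed at 0 between labels. For MYC in SMAD4-low libraries 3 passed without library 3 and 2 without library 4, the 1 gene without library 7 was CCL5 and not LCTL, and in SMAD4-expressing libraries 1 without library 18. No pair of network genes passed under any alternative scale or pseudocount or without the 2 farthest libraries. The cause of these changes was not tested, except that fits with fewer libraries hold less data.

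Signs of weak correlations with MYC changed. In SMAD4-low libraries MYC with MNT was 0.0941 without the 2 farthest libraries, 0.13 without library 7 and 0.11 in libraries labelled Panc-1, and MYC with MGA was 0.00698 without the 2 farthest. In SMAD4-expressing libraries MYC with MAX was -0.0282 without the 2 farthest and -0.0528 under the Panc-1 label. MYC with MXI1 was -0.20 under the Panc-1 label. MYC with MNT was -0.0017 on the CPM scale and -0.0862 without library 19. MYC with MGA was 0.0525 without library 18 and 0.38 under the Panc-1 label. MYC with MLX was 0.36 without the 2 farthest, 0.0947 without library 18 and 0.60 under the Panc-1 label. Other extremes of leaving out a library kept their sign.

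No paired analysis was possible because the labels give the lines no shared library numbers. With 12 and 14 libraries and 56 pairs, relations of moderate size could not be told from the spread between libraries.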
